A study of Mus musculus with 12 samples.

Results

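Cytokine receptor chains were followed across thymus and lung in mouse iNKT (invariant natural killer T) cells, which are T cells that see lipids presented by CD1d through a semi-invariant receptor. The genes described are Il2rb, Il2rg, Il7r, Il4ra, Il18r1, Il18rap, Il12rb1, Il12rb2, Il21r and Ifngr1, taken as the rows of the deposited expression table that carry these symbols. They are 10 of the 24781 genes in that table, and 8 of them were among the 5199 genes with enough signal to be tested (above 1 unit in at least 3 libraries). Il12rb1 and Il12rb2 did not reach that level.

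The study sorted iNKT cells of mice aged 6 weeks into tubes of 100 cells and made 1 RNA library from each tube. The 12 libraries form 4 groups of 3: thymus CD244+, thymus CD244-, lung CD244+ and lung CD244-, where CD244 is a receptor of NK cells and cytotoxic T cells. All sorted cells were positive for TCRbeta, NK1.1, the CD1d tetramer and CXCR6, and all were used fresh, with no treatment named. Strain, sex and genotype are not given in the sources used here. Replicates are named only as independent library preparations with no animal given, so the p-values reflect the spread among these libraries alone, and that spread may be technical.

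Cytokine receptors are assembled from chains that several receptors share. Il2rg encodes the common gamma chain, which pairs with the products of Il2rb for IL-2 and IL-15, Il7r for IL-7, Il4ra for IL-4 and Il21r for IL-21, and passes signals to Janus kinases and STAT factors. Mature iNKT cells of the NK1.1+ kind are known to depend on IL-15, to respond to IL-12 and IL-18, and to make interferon gamma, which is sensed through the receptor that Ifngr1 and Ifngr2 encode.

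Values are deposited signals, each a number of molecules times a constant of its library, rescaled here so that every library sums to 23117 units. A molecule was then worth 0.322 to 0.408 units in thymus CD244+, 0.343 to 0.385 in thymus CD244-, 0.449 to 0.544 in lung CD244+ and 0.718 to 0.778 in lung CD244- libraries, which held 56615 to 71789, 60120 to 67478, 42520 to 51436 and 29696 to 32196 molecules. All 4 groups carried RNA of a T cell receptor complex list (11 listed genes in the table, 0 of them without a molecule in any group). Besides the CD3 chain genes Cd3e, Cd3d, Cd3g and Cd247 it holds other T cell genes, Cd2, Cd5, Cd6, Thy1, Lck, Zap70 and Lat. The 11 genes summed to 26.5 to 30.8, 32.5 to 35.6, 12.9 to 24.2 and 34.3 to 40 molecules per 10000, in the same order. Macrophage and myeloid markers (14 genes) summed to 64.0, 124 and 109 molecules per 10000 in lung CD244+ libraries 1, 2 and 3, and to 0.473 to 1.11, 0.299 to 0.665 and 0 to 0.663 in the thymus CD244+, thymus CD244- and lung CD244- groups. In lung CD244- libraries 12 of the 14, among them Lyz2, C1qa and Adgre1, had no molecule, whereas in lung CD244+ libraries all 14 had molecules, and MHC class II and B cell genes summed to 48.9 to 126 against 0.332 to 0.621. NK cell markers (8 genes) summed to 11.9 to 12.7 in thymus CD244+, 1.27 to 2.70 in thymus CD244-, 10.9 to 23.8 in lung CD244+ and 1.24 to 1.99 in lung CD244- libraries. Lung epithelium and endothelium markers (8 genes) summed to 0 to 0.315, 0 to 0.296, 1.02 to 3.35 and 1.66 to 3.70, respectively. Of these, Scgb1a1 had 0, 0, 16 and 14 molecules in the same order. In such sorted pools fewer cells of a type and less RNA per cell cannot be told apart.

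Receptor chains differed between the tissues in both subsets. In CD244- cells, where the myeloid markers were near 0 in both tissues, lung libraries held more Ifngr1, Il21r and Il4ra and less Il7r than thymus libraries. Lung epithelium and endothelium markers were at 1.66 to 3.70 molecules per 10000 in these lung libraries and at 0 to 0.296 in thymus CD244-. The part of that RNA was not tested. In thymus only Ifngr1 separated the CD244 subsets past the threshold, at a higher level in CD244+ cells. In lung, Il2rb, Il2rg and Il21r were lower in the CD244+ libraries, which are the libraries with the myeloid signal. Neither chain of the IL-18 receptor passed the test in any of the 5 comparisons.

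The counts were read against all genes. In thymus 1 of the 8 tested chains was called at an adjusted p under 0.05 in a limma model over all 12 libraries, against 0.269% of all tested genes in either direction. That chain was higher, as were 0.212% of genes, and 0 chains and 0.0577% of genes were lower. In the lung CD244 comparison 3 of 8 were called, all lower, against 9.89% of genes in either direction, 6.44% higher and 3.44% lower. In CD244+ cells between tissues 4 of 8 were called against 10.9%, 2 of them higher (6.96% of genes) and 2 lower (3.96%). In CD244- cells 4 of 8 were called against 5.98%, 3 of them higher (3.10%) and 1 lower (2.89%). The CD244 effect itself differed between tissues for 2 of 8 chains, both lower, against 3.60% of genes in either direction, 2.98% higher and 0.616% lower. The 3 libraries of each group did not overlap for 2, 5, 5 and 5 of 8 chains in the first 4 comparisons, against 12%, 21.4%, 26.1% and 20.4% of all tested genes. The median log2 difference of the 8 chains was 0.18, -0.50, -0.15 and 0.44 in those comparisons and -0.78 for the difference between tissues, where the medians of all tested genes were -0.01, 0.00, 0.00, -0.03 and 0.04. These comparisons share libraries with each other, so their counts are not independent. An exact test of 3 libraries against 3 cannot go below a p of 0.1. Log2 differences are on the scale of log2(value + 1), which understates the change of low genes.

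**Figure D1:**
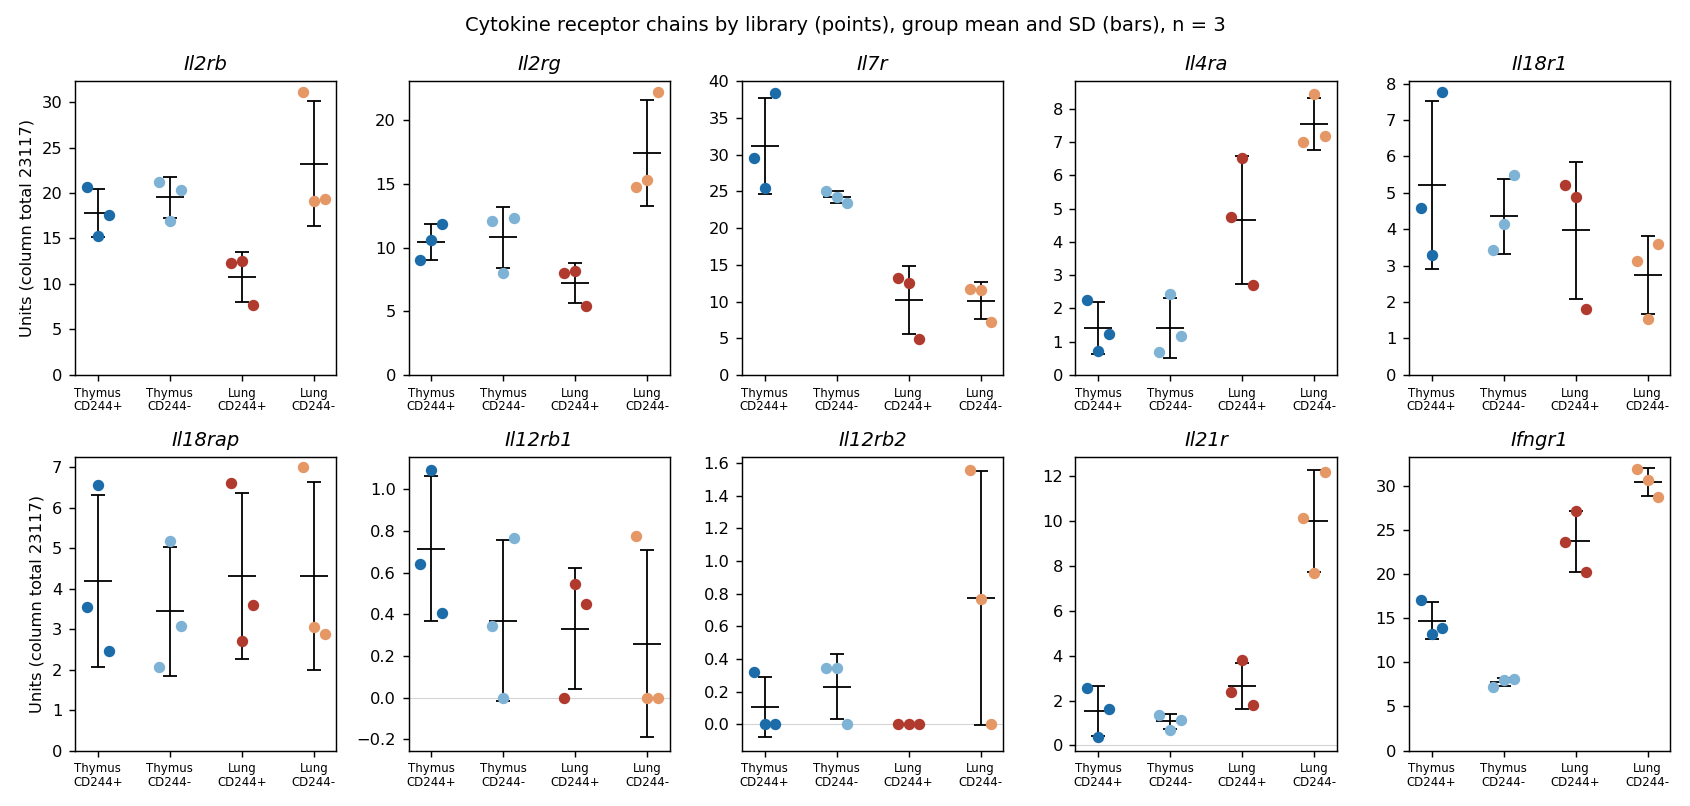
Expression of the 10 receptor chains in units (y axes, each library scaled to 23117 units and each panel with its own range) by group (x axes), with a point per library and bars for the group mean and SD (n = 3). Ifngr1 runs from 7.19 to 8.07 units in thymus CD244- to 28.7 to 31.9 in lung CD244- libraries, Il7r is higher in every thymus library than in every lung library, and Il12rb1 and Il12rb2 stay near 0 to 1.56 units.

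Il2rg, the common gamma chain (chromosome X, 101264378 to 101268255, minus strand, mm10), was at 9.02, 10.6 and 11.8 units in thymus CD244+ and 12.1, 8.04 and 12.3 in thymus CD244- libraries. In lung it was at 8.04, 8.15 and 5.39 units in CD244+ and 14.8, 15.3 and 22.3 in CD244- libraries. The thymus groups overlapped, and every lung CD244+ library lay below every lung CD244- library. The group means were 10.5 ± 1.42, 10.8 ± 2.40, 7.20 ± 1.56 and 17.5 ± 4.16 units (SD, n = 3), from 86, 90.5, 44 and 70 molecules. Between the lung subsets Il2rg was lower in CD244+ cells by a log2 difference of -1.17 ± 0.25 (SE, limma adjusted p = 0.000455), beside 64.0 to 124 myeloid molecules per 10000 against 0 to 0.663. Its log2 difference between tissues was 0.64 ± 0.25 in CD244- cells (adjusted p = 0.129) and -0.50 ± 0.25 in CD244+ cells (adjusted p = 0.241), and neither passed, although the groups did not overlap in either. The CD244 effect was lower in lung than in thymus by -1.14 ± 0.35 and just missed the threshold (adjusted p = 0.0510, range over 19 alternatives 0.0359 to 0.702), which it passed without lung CD244- library 1 (0.0413).

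Il2rb, the signalling chain of the IL-2 and IL-15 receptors (chromosome 15, 78479256 to 78495271, minus strand), had 20.6, 15.3 and 17.6 units in thymus CD244+ and 21.2, 16.9 and 20.4 in thymus CD244- libraries. The lung CD244+ libraries had 12.3, 12.5 and 7.64 units and the lung CD244- libraries 31.1, 19.2 and 19.4. All 3 lung CD244+ libraries were below all 9 others, which overlapped. Il2rb was lower in CD244+ than CD244- lung cells by -1.03 ± 0.22 (adjusted p = 0.000398), with a 95% interval of -1.46 to -0.60 and the same myeloid markers beside it. It was also lower in lung than in thymus CD244+ cells (-0.69 ± 0.22, adjusted p = 0.0244), and its difference in CD244- cells was 0.21 ± 0.22 (adjusted p = 0.681, interval -0.22 to 0.64). The call between tissues was lost without thymus CD244+ library 1 (limma adjusted p = 0.163) or 3 (0.0715) or lung CD244+ library 3 (0.263). It was also lost with edgeR on 9 libraries (-0.61, adjusted p = 0.1165). With scaling to the T cell receptor complex list the difference between tissues was -0.006 (limma adjusted p = 0.992). Over 19 alternatives the adjusted p of this call ran from 2.24e-05 to 0.992.

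The lung CD244+ values depend on what a library is scaled to. As another base of scaling, the 11 genes of the T cell receptor complex list were used in place of the library total. These genes did not move alike: at the common total they differed between the lung subsets by -2.15 (Cd6) to 0.05 (Cd2). On this base Il2rb had 13.7 to 28.6 units in lung CD244+ and 14.2 to 26.8 in lung CD244- libraries. Its log2 difference turned from -1.03 to 0.03 (limma adjusted p = 0.952, and 0.000175 to 0.952 over 19 alternatives). Il2rg kept its sign but was no longer called (-0.14, adjusted p = 0.750, the highest of 0.000175 to 0.750). Il7r turned from -0.06 to 0.97 (adjusted p = 0.0105, the lowest of a range up to 1) and Ifngr1 from -0.36 to 0.73 (adjusted p = 0.0319, the lowest of a range up to 0.651), and both then counted as higher. Il18r1 moved from 0.37 to 1.23 (adjusted p = 0.0152, the lowest of a range up to 0.915). The same scaling moved the median of all genes in this comparison from 0.00 to 0.69 on the log2 scale, and under it Il2rb and Il2rg lay below that median and Il7r, Ifngr1 and Il18r1 above it. The part of the non-T-cell RNA in the lung CD244+ values was not tested further.

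**Figure D2:**
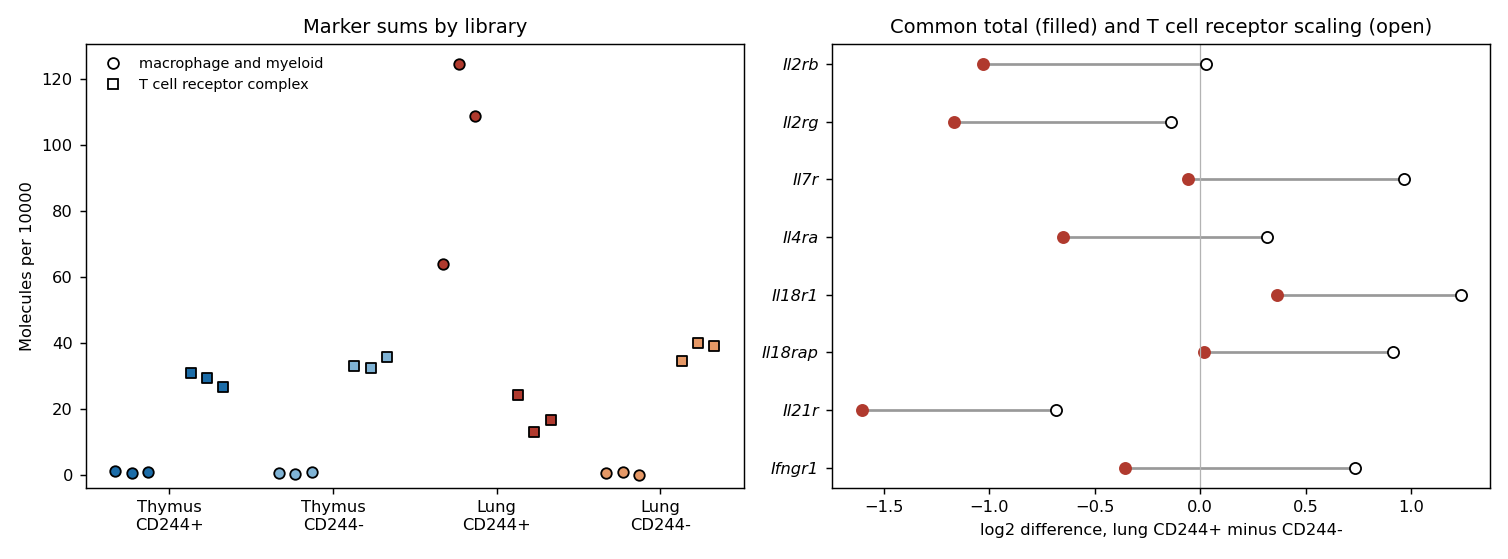
Left, summed molecules per 10000 (y axis) of macrophage and myeloid markers (circles) and of the T cell receptor complex list (squares) in each library by group (x axis). Right, the lung CD244+ minus CD244- log2 difference (x axis) of the 8 tested chains with a common total (filled) and with T cell receptor scaling (open): all 8 move to the right, Il2rb from -1.03 to 0.03 and Il7r from -0.06 to 0.97.

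Il7r, the alpha chain of the IL-7 receptor, which carries survival signals in naive and memory T cells (chromosome 15, 9505788 to 9530176, minus strand), was called lower in lung than in thymus in both subsets. It had 29.6, 25.5 and 38.4 units in thymus CD244+ and 25.0, 24.2 and 23.5 in thymus CD244- libraries, from 256 and 204 molecules. In lung it had 13.2, 12.5 and 4.94 units in CD244+ and 11.7, 11.5 and 7.18 in CD244- libraries, from 62 and 40 molecules. No lung library reached the lowest thymus library. Il7r was lower in lung by -1.21 ± 0.24 in CD244- cells (limma adjusted p = 0.000197) and by -1.60 ± 0.24 in CD244+ cells (adjusted p = 2.88e-07), and both calls held in all 19 alternatives. In molecules, the share of Il7r in lung was 0.365 of that in thymus over both subsets, with a 95% counting interval of 0.291 to 0.453 that covers counting error only. The thymus CD244+ libraries all lay above the thymus CD244- libraries, at 31.2 ± 6.58 against 24.2 ± 0.777 units (SD, n = 3), and the difference of 0.33 ± 0.24 did not pass (adjusted p = 1, interval -0.14 to 0.81).

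Il4ra, the ligand-binding chain of the IL-4 receptor, which IL-13 also uses (chromosome 7, 125552120 to 125579474, plus strand), rested on few molecules. It had 2.25, 0.729 and 1.23 units in thymus CD244+ and 0.685, 2.42 and 1.15 in thymus CD244- libraries. The lung CD244+ libraries had 4.73, 6.52 and 2.70 units and the lung CD244- libraries 7.01, 8.44 and 7.18. Every lung library was above every thymus library. The rise from thymus to lung was 1.88 ± 0.37 in CD244- cells (limma adjusted p = 0.000189, called in all 19 alternatives), from 12 and 30 molecules, a ratio of shares of 5.28 (95% counting interval 2.63 to 11.3). In CD244+ cells it was 1.22 ± 0.37 (adjusted p = 0.0169), from 12 and 28 molecules and beside the myeloid markers of the lung CD244+ libraries. That call was lost with the deposited column totals (adjusted p = 0.0931) and without thymus CD244+ library 2 (0.1295) or 3 (0.0569) or lung CD244+ library 1 (0.0597) or 2 (0.174), in a range of 0.000457 to 0.174 over 19 alternatives.

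Il21r, the IL-21 binding chain (chromosome 7, 125603429 to 125633570, plus strand), is the neighbour of Il4ra. Both are on the plus strand, 23954 bases apart, with 0 protein-coding genes between them. Il21r had 2.58, 0.364 and 1.63 units in thymus CD244+ and 1.37, 0.691 and 1.15 in thymus CD244- libraries, from 13 and 9 molecules. In lung it had 2.37, 3.81 and 1.80 units in CD244+ and 10.1, 7.67 and 12.2 in CD244- libraries, from 16 and 40 molecules. The lung CD244- libraries stood above all 9 others, while the lung CD244+ libraries overlapped thymus CD244+ and lay above thymus CD244-. Il21r was higher in lung than in thymus CD244- cells by 2.40 ± 0.37 (limma adjusted p = 2.50e-06, called in all 19 alternatives), a ratio of molecule shares of 9.39 (95% counting interval 4.49 to 22).

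Within lung, Il21r was lower in CD244+ than CD244- cells by -1.60 ± 0.37 (limma adjusted p = 0.00156). With T cell receptor scaling the direction stayed and the call was lost (-0.69, adjusted p = 0.207, the highest over 19 alternatives, from 2.19e-05). The CD244 effect on Il21r differed between tissues by -1.80 ± 0.53 (adjusted p = 0.0399), from 0.19 ± 0.37 in thymus to -1.60 in lung. That difference missed the threshold in 12 of 19 alternatives (adjusted p from 0.00325 to 0.545), among them without thymus CD244+ library 1 (0.198) or 3 (0.0962), thymus CD244- library 2 (0.114) or 3 (0.0653), lung CD244+ library 1 (0.0807) or 3 (0.195), and lung CD244- library 1 (0.0585) or 3 (0.0911).

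Dividing a partner chain by Il2rg within each library removes any scaling, and the ratio of molecules can then be set between groups, though not read as relative abundance of the chains. Il7r to Il2rg was 2.41 to 3.29 in thymus CD244+, 1.91 to 3.01 in thymus CD244-, 0.917 to 1.65 in lung CD244+ and 0.323 to 0.789 in lung CD244- libraries. Lung was below thymus in all libraries of both subsets, and lung CD244- below lung CD244+. Il4ra to Il2rg ran the other way, at 0.069 to 0.25 and 0.057 to 0.301 in the thymus groups and 0.5 to 0.8 and 0.323 to 0.55 in the lung groups. Il21r to Il2rg was 0.034 to 0.286 and 0.086 to 0.113 in thymus CD244+ and CD244- libraries. In lung it was 0.294 to 0.467 in CD244+ and 0.5 to 0.684 in CD244- libraries. The lung ranges did not overlap but came close, on 5, 7 and 4 against 13, 10 and 17 Il21r molecules. The counting error of such ratios was not estimated, so whether the lung subsets differ in them is not settled. Il2rb to Il2rg was 1.45 to 2.29, 1.66 to 2.11, 1.42 to 1.53 and 0.871 to 2.11 in the 4 groups, and all of them overlapped except thymus CD244- and lung CD244+. Myeloid cells are known to express Il2rg and Il4ra too, and their part in the lung CD244+ ratios was not tested.

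**Figure D3:**
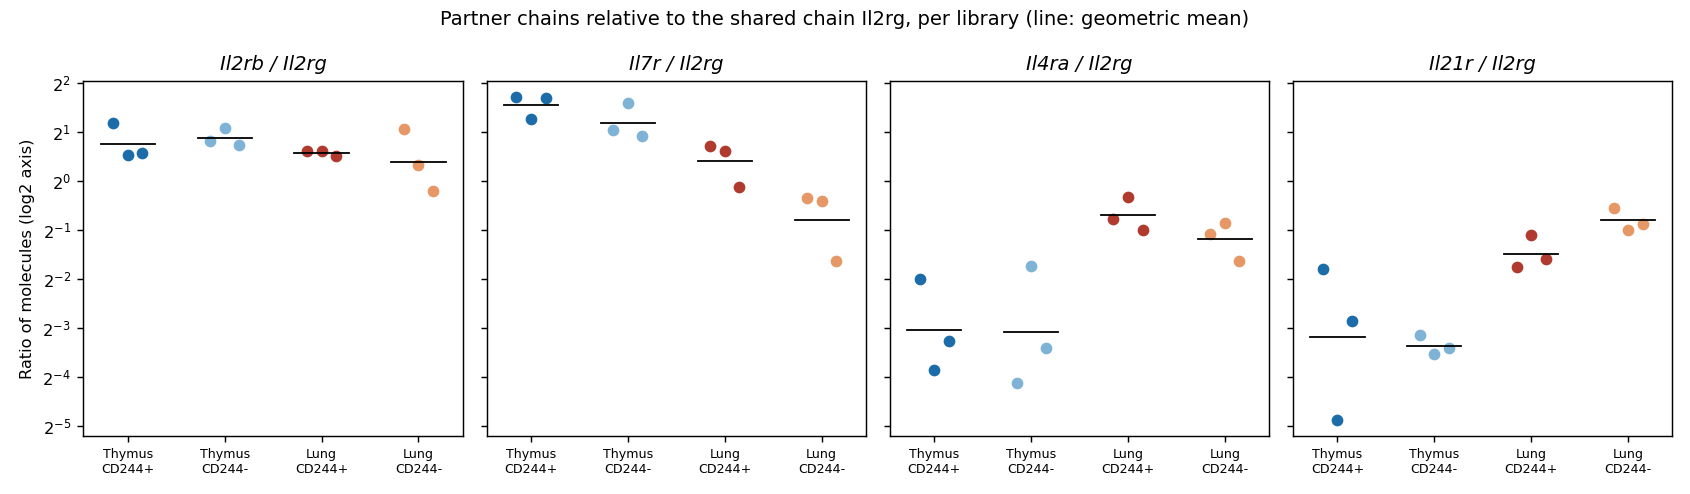
Molecules of Il2rb, Il7r, Il4ra and Il21r per molecule of Il2rg (y axis, log2) in each library by group (x axis), with a line at the geometric mean of 3 libraries. Il7r falls from 1.91 to 3.29 in thymus to 0.323 to 1.65 in lung libraries, and Il4ra and Il21r rise from at most 0.301 and 0.286 to at least 0.323 and 0.294.

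Ifngr1, the ligand-binding chain of the interferon gamma receptor (chromosome 10, 19591949 to 19610229, plus strand), ordered all 4 groups without overlap at the common total. With T cell receptor scaling the lung groups changed places, at 29.0 to 62.1 units in CD244+ and 21.7 to 27.5 in CD244- libraries. The values that follow are at the common total. It had 7.19, 8.04 and 8.07 units in thymus CD244-, 17.1, 13.2 and 13.9 in thymus CD244+, 23.7, 27.2 and 20.2 in lung CD244+ and 31.9, 30.7 and 28.7 in lung CD244- libraries. The means were 7.77 ± 0.498, 14.7 ± 2.06, 23.7 ± 3.48 and 30.4 ± 1.61 units (SD, n = 3), from 65, 123, 145 and 121 molecules. The rise from thymus to lung in CD244- cells was 1.84 ± 0.20 (limma adjusted p = 2.52e-10, called in all 19 alternatives). In CD244+ cells it was 0.65 ± 0.20 (limma adjusted p = 0.0242), beside the myeloid markers of the lung CD244+ libraries. The CD244+ call was lost with the deposited column totals (0.20, adjusted p = 0.587), with no filter (0.0546), and without thymus CD244+ library 2 (0.123) or 3 (0.0948) or lung CD244+ library 1 (0.0702) or 2 (0.172), in a range of 9.45e-05 to 0.587.

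In thymus, where 0.299 to 1.11 myeloid molecules per 10000 were seen in either subset, Ifngr1 was higher in CD244+ cells by 0.84 ± 0.20 (limma adjusted p = 0.0445), in 3 of 3 libraries. The molecules gave a ratio of shares of 1.92 (95% counting interval 1.41 to 2.63). This call stood close to the threshold and was lost in 11 of 19 alternatives (adjusted p from 0.0281 to 0.448): without thymus CD244+ library 1 (0.448), 2 (0.0997) or 3 (0.1465), without thymus CD244- library 1 (0.284), 2 (0.173) or 3 (0.124), and in 5 others, while the log2 difference stayed between 0.62 and 1.04. NK cell markers moved with it, at 11.9 to 12.7 molecules per 10000 in CD244+ against 1.27 to 2.70 in CD244- libraries, and their part was not tested. That sum was carried by Gzma (98.25 against 3.25 molecules per group), Fcer1g (71 against 10) and Klre1 (67 against 22), while Ncr1 and Itga2 had 0 molecules in both, Eomes 1 against 0, Klra4 0 against 1 and Klra8 0.25 against 2. In lung the direction was the opposite at -0.36 ± 0.20, not past the threshold (adjusted p = 0.317) and turned by T cell receptor scaling. The CD244 effect on Ifngr1 differed between lung and thymus by -1.19 ± 0.29 (adjusted p = 0.00565, range 0.00490 to 0.676). It missed the threshold with T cell receptor scaling (-0.30, adjusted p = 0.676), with edgeR on 9 libraries (0.0695) and without lung CD244+ library 3 (0.0622).

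The windows just before the Ifngr1 and Il21r starts are shown because, of the chains that were higher in lung than in thymus CD244- cells, these had the smallest adjusted p. Each window is the 250 bases before the RefSeq start on build GRCm38.p6, 5′ to 3′ on the gene's plus strand, at chr10:19591699-19591948 and chr7:125603179-125603428. Capitals mark matches to the motifs searched.
Ifngr1: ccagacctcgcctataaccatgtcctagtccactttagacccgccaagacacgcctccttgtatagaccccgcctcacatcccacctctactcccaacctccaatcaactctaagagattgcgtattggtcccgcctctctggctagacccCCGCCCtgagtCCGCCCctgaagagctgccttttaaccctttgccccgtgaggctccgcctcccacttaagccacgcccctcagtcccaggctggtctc
Il21r: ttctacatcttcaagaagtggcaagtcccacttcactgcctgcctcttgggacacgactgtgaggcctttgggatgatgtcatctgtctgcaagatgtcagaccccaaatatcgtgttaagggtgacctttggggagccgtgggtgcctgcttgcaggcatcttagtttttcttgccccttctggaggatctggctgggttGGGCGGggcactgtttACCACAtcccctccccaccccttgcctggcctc

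Promoter windows were found in RefSeq for 8 of the 10 chains, all but Il2rb and Il12rb1. Each was searched on both strands for a STAT palindrome (TTCNNNGAA), an AP-1 site (TGANTCA), a Runx core (TGTGGT), a GC box (GGGCGG) and a TATA box (TATAAA). The Ifngr1 window held 2 GC boxes, 99 and 88 bases before the start, and no other motif. The Il21r window held a GC box 49 bases and a Runx core 33 bases before the start. GC boxes were in 32.7% of 32851 promoters of this length and Runx cores in 14.0%. A STAT palindrome was found before Il7r (142 bases), Il12rb2 (123 bases) and 1 of the 3 starts of Il18r1 (219 and 152 bases), against 7.0% of promoters. A Runx core was found before Il2rg (227 bases) and a GC box before Il4ra (76 bases). AP-1 (6.7%) and TATA (12.4%) letters were in none of the 8 genes' windows. A match is a description of these letters.

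The IL-18 receptor has a binding chain, Il18r1, and an accessory chain, Il18rap, which are neighbours on the plus strand of chromosome 1 (40465552 to 40500854 and 40515362 to 40551705), 14507 bases apart. Il18r1 had 4.59, 3.28 and 7.76 units in thymus CD244+, 3.43, 4.15 and 5.48 in thymus CD244-, 5.20, 4.89 and 1.80 in lung CD244+ and 3.11, 1.53 and 3.59 in lung CD244- libraries. Il18rap had 3.54, 6.56 and 2.45, 2.06, 5.19 and 3.08, 6.62, 2.72 and 3.60, and 7.01, 3.07 and 2.87 units in the same order. All groups overlapped for both genes. The log2 differences of Il18r1 were 0.17 ± 0.36 in thymus, 0.37 ± 0.36 in lung, -0.34 ± 0.36 between tissues in CD244+ cells and -0.54 ± 0.36 in CD244- cells (SE, limma adjusted p from 0.464 to 1). Those of Il18rap were 0.21 ± 0.36, 0.02 ± 0.36, 0.05 ± 0.36 and 0.24 ± 0.36 (adjusted p from 0.812 to 1). The 95% interval of the thymus CD244 difference was -0.54 to 0.88 for Il18r1 and -0.52 to 0.93 for Il18rap, so differences within these bounds were not excluded.

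The IL-12 receptor chains were at the limit of detection. Il12rb1 (chromosome 8, 70808449 to 70821424, plus strand) had 2, 3 and 1 molecules in thymus CD244+, 1, 0 and 2 in thymus CD244-, 0, 1 and 1 in lung CD244+ and 1, 0 and 0 in lung CD244- libraries. The share in lung was 0.548 of that in thymus, with a 95% counting interval of 0.095 to 2.20. Il12rb2 (chromosome 6, 67291318 to 67376188, minus strand) had 1, 0 and 0, 1, 1 and 0, 0, 0 and 0, and 2, 1 and 0 molecules in the same order. Its absence from the lung CD244+ libraries allows up to 1.35 to 1.63 units per library, since a count of 0 is compatible with 3 molecules. The gene overlaps Serbp1 on the other strand, which had 543.5 molecules in all, and whether reads were assigned by strand is not given in the sources used here. Differences between groups in either IL-12 receptor chain were not detectable at this depth.

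**Figure D4:**
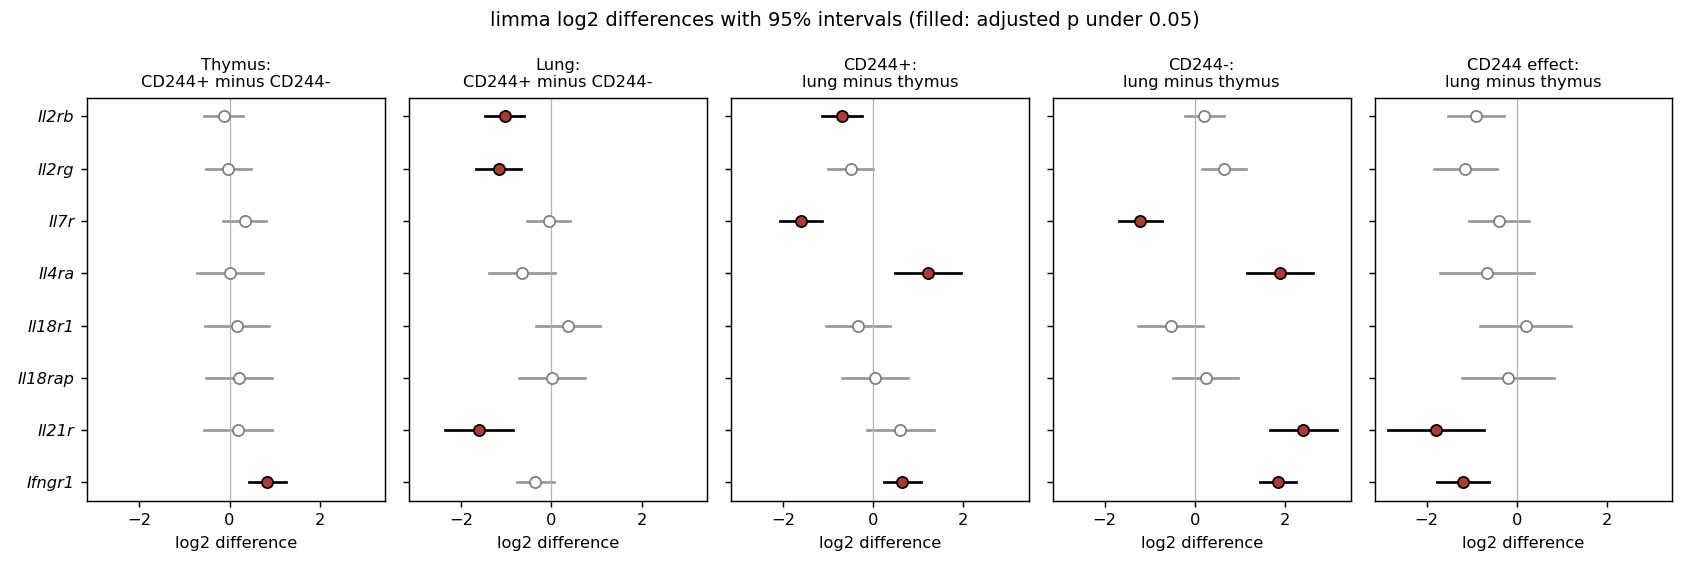
Log2 differences (x axes) of the 8 tested chains (y axis) in the 5 comparisons, with 95% limma intervals; filled points have an adjusted p under 0.05. In CD244- cells Ifngr1 (1.84), Il21r (2.40) and Il4ra (1.88) lie to the right and Il7r (-1.21) to the left, and in lung Il2rb, Il2rg and Il21r lie to the left at -1.03, -1.17 and -1.60.

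Chains that complete the same receptors were sparse. Ifngr2, the second chain of the interferon gamma receptor, had 1 and 0 molecules in thymus CD244+ and CD244- and 10 and 0 in lung CD244+ and CD244- groups. Il2ra, the alpha chain of the IL-2 receptor, had 0, 2, 0 and 2 molecules and Il15ra, its counterpart for IL-15, had 2, 2, 2 and 0. Of 41 other genes of cytokine receptors on a list that also holds the decoy gene Il18bp, 12 were tested, and 0 were called in thymus by limma (0 at an unadjusted p under 0.05, and 0 of 2 with edgeR). Of all tested genes limma called 0.269% there. In CD244- cells, where 3.10% of all tested genes were higher in lung, 1 rose from thymus to lung, the interferon receptor gene Ifnar1 (1.40 ± 0.42, limma adjusted p = 0.0301). Ifnar1 had 7 molecules in thymus CD244- and 15 in lung CD244- libraries. It missed the threshold in 9 of 18 alternatives (adjusted p from 0.0153 to 0.236), among them without thymus CD244- library 1 (0.0711), 2 (0.0578) or 3 (0.173) or lung CD244- library 1 (0.0655) or 2 (0.0999).

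Csf1r, Lifr and Csf2rb were also called higher in lung CD244+ than in lung CD244- libraries. They reached the minimum level for testing only through the lung CD244+ group, so their count is no evidence on the list. Csf1r (3.53 ± 0.41, limma adjusted p = 5.93e-10) encodes the receptor of the macrophage growth factor, Lifr (2.14 ± 0.39, adjusted p = 3.42e-05) that for leukaemia inhibitory factor, and Csf2rb (1.85 ± 0.40, adjusted p = 0.000486) the chain shared by IL-3, IL-5 and GM-CSF. The same 3 were higher than in thymus CD244+ cells (3.81, 2.14 and 1.56). Csf1r had 85 molecules in lung CD244+ against 1 in lung CD244- libraries, Lifr 22 against 0 and Csf2rb 17 against 0. Csf1r is also on the myeloid list.

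Ligands of these receptors were hardly seen: of 13, only Ifng and Il4 were tested, and limma called neither in any comparison (1 of them had an unadjusted p under 0.05 in thymus and 1 between tissues in CD244- cells, and edgeR tested 0). In thymus Ifng had 10 molecules in CD244+ and 1 in CD244- libraries (0.996 ± 0.413, limma adjusted p = 1), and Il4 had 3 and 10 (-0.68 ± 0.39, adjusted p = 1). Of 18 kinases, STAT factors and adaptors, 14 were tested and limma called 0 in thymus or between tissues in CD244+ cells (0 and 2 at an unadjusted p under 0.05, and 0 of 5 with edgeR in each). Of all tested genes limma called 0.269% and 10.9% in these comparisons. In CD244- cells Irak2, a kinase downstream of the IL-18 receptor, was higher in lung than in thymus (1.38 ± 0.43, limma adjusted p = 0.0349). Irak2 had only 5 molecules in thymus CD244- and 11 in lung CD244- libraries, and the groups overlapped. It missed the threshold in 7 of 18 alternatives (adjusted p from 0.00909 to 0.236), including without thymus CD244- library 2 (0.216) or 3 (0.2245) or lung CD244- library 2 (0.0925) or 3 (0.127). In lung, Jak1, a kinase that several of these chains bind, was lower in CD244+ libraries (-0.74 ± 0.21, limma adjusted p = 0.0145) and turned to 0.33 with T cell receptor scaling. Jak1 also missed the threshold with edgeR on 9 libraries (-0.49, adjusted p = 0.193). It missed it in limma without lung CD244+ library 2 (0.0943) or 3 (0.0873) or lung CD244- library 2 (0.1095). The adjusted p ranged from 0.00363 to 0.343. The median log2 difference of the 14 genes was -0.12 in thymus, -0.35 in lung, -0.02 between tissues in CD244+ cells and 0.32 in CD244- cells. The medians of all tested genes were -0.015, 0.004, 0.002 and -0.032 in the same order.

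Of 23 feedback inhibitors and target genes, 20 were tested, and in CD244- cells 2 were higher and 3 lower in lung than in thymus. Of all tested genes 3.10% were higher and 2.89% lower. Ptpn6, the phosphatase SHP-1 that restrains cytokine and antigen receptor signals, fell from 8.40 ± 0.949 units in thymus to 0.259 ± 0.449 in lung, or from 71 molecules to 1 (-2.95 ± 0.36, limma adjusted p = 2.96e-09, called in all 19 alternatives). Myc, a growth regulator that IL-2 family cytokines induce (-1.58 ± 0.41, adjusted p = 0.00807), and Irgm1, an interferon-induced GTPase (-1.55 ± 0.42, adjusted p = 0.0115), were lower as well. Socs2, a suppressor of cytokine signalling, rose to 6.98 from 1.64 units (1.70 ± 0.43, limma adjusted p = 0.00625). The STAT5 target kinase gene Pim1 rose to 3.76 from 1.07 units (1.20 ± 0.37, limma adjusted p = 0.0349), on 9 molecules in thymus and 15 in lung. Without lung CD244- library 3, Myc (0.0517), Irgm1 (0.0518), Socs2 (0.0545) and Pim1 (0.0945) missed the threshold. So did Irgm1 without thymus CD244- library 1 (0.0911) or 3 (0.0548), Socs2 without thymus CD244- library 3 (0.111), and Pim1 without thymus CD244- library 1 (0.0636), 2 (0.175) or 3 (0.0848) or lung CD244- library 1 (0.0721). The ranges of adjusted p over the alternatives were 0.000523 to 0.0517 for Myc, 0.00106 to 0.0911 for Irgm1, 0.000490 to 0.111 for Socs2 and 0.0339 to 0.221 for Pim1.

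In the lung CD244+ libraries, beside their myeloid markers, Socs3 (2.39 ± 0.40, limma adjusted p = 5.14e-06) and Ptpn6 (2.06 ± 0.36, adjusted p = 1.30e-05) were higher than in lung CD244-, and Socs3 reached the minimum level for testing only through the lung CD244+ group. Gata3, the Th2 transcription factor gene (-1.73 ± 0.31), the guanylate-binding protein gene Gbp7 (-1.68 ± 0.33), the survival gene Bcl2 (-1.35 ± 0.30) and Socs2 (-1.27 ± 0.43, adjusted p = 0.0456) were lower. With T cell receptor scaling Socs3 and Ptpn6 were still called, and the 4 lower genes kept their direction without passing (adjusted p = 0.0501, 0.0669, 0.360 and 0.493). Over their 19 alternatives the adjusted p ran from 5.50e-07 to 0.0501 for Gata3, 3.54e-07 to 0.0839 for Gbp7 and 0.000475 to 0.360 for Bcl2. Socs2 missed the threshold in 11 of 19 alternatives (0.00512 to 0.493), among them without lung CD244+ library 1 (0.0661) or 3 (0.417) and without lung CD244- library 1 (0.1255) or 3 (0.172), and without thymus CD244+ library 2 (0.0541) or 3 (0.0515) or thymus CD244- library 1 (0.0571). Against thymus CD244+ cells, the lung CD244+ libraries had higher Socs3 (2.93 ± 0.40) and the survival gene Mcl1 (1.23 ± 0.29) and lower Gbp7 (-1.82 ± 0.33), Gata3 (-1.36 ± 0.31), Bcl2 (-1.14 ± 0.30) and Socs1 (-1.48 ± 0.40, adjusted p = 0.00687). Of these, Gata3 missed the threshold with T cell receptor scaling (adjusted p = 0.0801) and with edgeR (0.0505), in a range of 3.24e-06 to 0.0801. Bcl2 missed it with T cell receptor scaling (0.276) and without lung CD244+ library 3 (0.0893), and Socs1 without thymus CD244+ library 1 (0.0632) or lung CD244+ library 2 (0.127), in ranges of 3.10e-05 to 0.276 and 0.000404 to 0.127. In thymus 0 of the 20 passed in limma (3 at an unadjusted p under 0.05, and 0 of 9 with edgeR), against 0.269% of all tested genes. Their median log2 difference there was -0.015, and that of all tested genes was -0.015.

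For the 3 chains with the highest mean, the tested genes most alike in pattern over the 4 groups were found among 590 genes with a mean of at least 5 units, by the distance between centred log2 group means. For Ifngr1 they included Serpinb6b (distance 0.365) and Dennd4a (0.367). Serpinb6b, a serine protease inhibitor gene, had group means of 5.73, 2.57, 12.6 and 13.8 units in thymus CD244+, thymus CD244-, lung CD244+ and lung CD244-. For Il7r they were Ifi203 (0.278), the ribosomal protein gene Rpl32 (0.327) and AW112010 (0.355), and for Il2rb Cox7a2l (0.126), Pfdn5 (0.135) and Pitpnc1 (0.149). Ifi203, an interferon-inducible gene, had 10.1, 7.50, 3.00 and 3.88 units in the same order as above. A distance over 4 group means describes these libraries only.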

How the data were processed

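RNA of 12 sorted pools was measured. Per the labels' protocols, reverse transcription primers carried molecular barcodes and ERCC spike-in RNA was added. The aligner was STAR and the build mm10, per the submitters' processing notes, which name no version. How molecules were counted, on which annotation and strand, and how columns were scaled are not given in the sources used here. The deposited signal of a gene, made by the authors, was a number of molecules times a library constant. Thymus columns summed to 26890.5 units and lung columns to 19342.9, 0 rows were ERCC, and 94.3% to 95.9% of nonzero values were whole molecules (tolerance 1e-06). Molecules per library (29696 to 71789) were recovered by dividing by the constant.

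All columns were rescaled to 23117 units, so levels set between tissues rest on that choice. Genes above 1 unit in at least 3 libraries were tested on log2(value + 1) in a single limma 3.58.1 fit under R 4.3.3 (eBayes with trend and robust set), with 4 group means and no covariate, two-sided, with Benjamini-Hochberg adjustment over all 5199 genes and a threshold of 0.05. The 5 comparisons were CD244+ minus CD244- in each tissue, lung minus thymus in each subset, and the difference of the CD244 effects (the interaction). Ratios of molecules have exact 95% binomial intervals. Intervals, and floors of 3 molecules, cover counting error only. The test was also run on simulated data, for lung minus thymus in CD244- cells only. All simulated libraries were drawn from the thymus CD244- profile with a single spread. That run therefore cannot speak for comparisons with the lung CD244+ libraries.

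The 19 alternatives were the deposited column totals, scaling to the T cell receptor complex list, pseudocounts of 0.5 and 5, no filter, a replicate block, edgeR 4.0.16 (quasi-likelihood) on recovered molecules rounded to whole numbers, and each of the 12 libraries left out. The edgeR fit left out 3 libraries, thymus CD244+ 1, thymus CD244- 2 and lung CD244+ 2, and tested 1154 genes. Where a group keeps 2 libraries, the fit assumes that they vary like the other groups. Replicate numbers name no shared animal, and same-numbered libraries did not deviate together (18 correlations, -0.031 to 0.014), so they were not treated as pairs. Replicates differed by a chi-square per degree of freedom of 1.65 to 1.70 in lung CD244+ and of 1.09 to 1.23 in the other groups, and each library was counted once. The limma fit shares a single spread per gene over the groups. Its errors and p-values for comparisons with the lung CD244+ libraries may therefore be too small.

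The named genes were all 10 chains, up to 6 called genes per list and comparison by smallest p, and for the 3 chains with the highest mean the 3 genes nearest in pattern. Of the genes this rule names, 2 are not reported here. The chains and lists were chosen with earlier results of these data known. Positions are from GENCODE M21, and promoter sequences from RefSeq.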

Additional observations from a re-analysis of the deposited data

Results flagged for a closer look

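The effect of CD244 differed between lung and thymus for 2 of the 8 tested receptor chains and 8 genes of the receptor lists. The test was the interaction in limma (adjusted p under 0.05), which called 3.60% of all tested genes. Csf1r, Lifr, Csf2rb and Socs3 reached the minimum level for testing only through the lung CD244+ group, so their calls are no evidence on the lists. Ifngr1 had a difference of effects of -1.19 on the log2 scale (SE 0.29, limma adjusted p = 0.00565). At the common total, 3 of 3 thymus CD244+ libraries lay above and 3 of 3 lung CD244+ libraries below the CD244- libraries of their tissue. With T cell receptor scaling the lung CD244+ libraries lay above lung CD244- (29.0 to 62.1 against 21.7 to 27.5 units), and the difference of effects was -0.30 (adjusted p = 0.676). The Ifngr1 call was lost in 3 of 19 alternatives. Il21r had -1.80 (SE 0.53, limma adjusted p = 0.0399) and lost the call in 12 of 19 alternatives (adjusted p up to 0.545).

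Among feedback and target genes, the differences were -1.64 for Bcl2 (adjusted p = 0.0103), -1.53 for Gata3 (0.0263), -1.65 for Gbp7 (0.0263), 2.40 for Ptpn6 (0.000994) and 2.54 for Socs3 (0.00197). Among other receptor chains they were 3.53 for Csf1r (1.44e-05), 1.84 for Csf2rb (0.0470) and 2.14 for Lifr (0.0116). Of these 8 calls, 6 were lost in some alternatives. Bcl2 lost the call in 4 of 19 (adjusted p up to 0.277), among them without thymus CD244+ library 1 (0.0566) or lung CD244+ library 3 (0.122). Gata3 lost it in 7 of 19 (up to 0.289), among them without thymus CD244+ library 2 (0.108), thymus CD244- library 3 (0.1055), lung CD244+ library 2 (0.199) or lung CD244- library 1 (0.1185). Gbp7 lost it in 10 of 19 (up to 0.426), among them without thymus CD244+ library 1 (0.0981) or 2 (0.1325), thymus CD244- library 2 (0.0531) or 3 (0.119), lung CD244+ library 2 (0.189) or lung CD244- library 2 (0.0702). Csf2rb lost it in 11 of 15 (up to 0.164), among them without thymus CD244+ library 1 (0.157) or 2 (0.164) or any of the 6 CD244- libraries (0.0585 to 0.137). Socs3 and Csf1r lost it with edgeR only (0.9998 for each), of 16 alternatives each, and Ptpn6 and Lifr kept it in all 19 and 15. All of these differences use the lung CD244+ libraries, whose myeloid markers summed to 64.0 to 124 molecules per 10000, against 0 to 1.11 in the other 9 libraries. The part of that RNA in the differences was not tested.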

How the results depend on the processing

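The numbers 1 to 3 do not pair the libraries. With the replicate block, the calls among the chains were 0 in thymus, 3 in lung, 4 and 4 between tissues and 2 for the difference of effects, so the block ended only the thymus call of Ifngr1 (adjusted p = 0.0665). Il7r between tissues in both subsets, and Il4ra, Il21r and Ifngr1 between tissues in CD244- cells, were called in all 19 alternatives.

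Chains called in thymus numbered 1, and 0 with T cell receptor scaling, a pseudocount of 5, no filter, the block or edgeR. Chains called for the difference of effects numbered 2, and 0 with T cell receptor scaling or edgeR, 1 with a pseudocount of 0.5 or no filter, and 3 with a pseudocount of 5, where Il2rg was gained (adjusted p = 0.0359). With 1 library left out, chains called ranged from 0 to 1 in thymus, 3 to 3 in lung, 1 to 4 and 4 to 4 between tissues in CD244+ and CD244- cells, and 0 to 2 for the difference of effects. Genes called ranged from 9 to 19, 211 to 507, 319 to 607, 210 to 336 and 48 to 184 in the same order.

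T cell receptor scaling called 1708 genes in lung (99.1% of them higher), 1063 and 165 between tissues in CD244+ and CD244- cells and 453 for the difference of effects, against 514, 568, 311 and 187, and put the median of all genes at 0.69, 0.48, -0.08 and 0.58, from 0.00, 0.00, -0.03 and 0.04. It changed the sign of the lung differences of Il2rb (0.027), Il7r (0.97), Ifngr1 (0.73) and Jak1 (0.33). Il2rb and Jak1 were then no longer called (limma adjusted p = 0.952 and 0.343), and Il7r and Ifngr1 had not been called at the common total (0.922 and 0.317). Under the deposited column totals 550 genes were called in CD244- cells (20.4% of them higher), the medians between tissues were -0.27 and -0.29, and Il2rg became lower in lung CD244+ cells (-0.92, adjusted p = 0.00448). Of the 1154 genes that edgeR tested it called 180 in lung, 299 in CD244+ cells and 21 for the difference of effects. Where no cause is given here, the cause was not tested. The IL-12 receptor chains, Il21r and Il4ra in thymus and Il18r1 in lung CD244- libraries rest on few molecules per library. So do the tissue calls of Ifnar1, Irak2 and Pim1 in CD244- cells.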
